A study of Mus musculus with 37 samples.

Results

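Prostanoids are lipid mediators made from arachidonic acid, and 10 genes that make, move or break them down were followed in bone marrow and spleen of mice exposed to social defeat. The genes were taken by symbol, and all 10 were found among the 35885 genes of the deposited table. The cyclooxygenase genes, Ptgs1 and Ptgs2, feed 5 genes annotated as terminal synthases, Hpgds, Ptges, Ptges2, Ptges3 and Tbxas1. Slco2a1 carries prostaglandins into cells, and Hpgd and Ptgr1 inactivate them.

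Cyclooxygenases turn arachidonic acid into prostaglandin H2, and the terminal synthases turn that intermediate into prostaglandin D2 (Hpgds), prostaglandin E2 (Ptges, Ptges2 and Ptges3) or thromboxane A2 (Tbxas1). The products act close to where they are made, because uptake into cells followed by oxidation and reduction ends their signal. In blood-forming tissue, prostaglandin E2 is known to act on stem and progenitor cells, and thromboxane A2 is known for activating platelets.

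All mice were wild-type C57BL/6N. The stressed groups met an aggressive opponent 1 time (1xStress), 4 times (4xStress) or 10 times (10xStress), on separate days, and a rested group had 1 week without defeat after the 10 defeats. Controls were never defeated. Polyadenylated RNA was sequenced from 4 1xStress, 3 4xStress, 5 10xStress, 4 rested and 3 control marrows, flushed from the femur, and from 2 1xStress, 2 4xStress, 6 10xStress, 4 rested and 4 control spleens. These are bulk samples, so fewer cells of a type and less RNA per cell cannot be told apart. Values are abundances per gene on a scale per transcript length, and every level below is on that scale. Every fold change is a difference of means of log2(value + 1) with its standard error.

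Depth, estimated from the steps between low values, ran between 3.978 and 38.5 M reads per library. In 5 spleen libraries, 10xStress D6, D7, D9 and D10 and rested D2, values fell more steeply with transcript length (slopes of log2 value on log2 length of -0.712 to -0.658) than in the other 13 (-0.578 to -0.405). Haemoglobin genes held 45.4% to 58.83% of the total in these 5 and 1.74% to 39.78% in the others. The totals themselves differed, at 1539153 to 2652290 in these 5 and 657918 to 1015794 in the other 13. Calls of the 10 genes and of neighbouring pathway genes after 10 defeats in spleen are therefore given with and without these 5 libraries. This choice was made after seeing the data and leaves 10xStress D4 and D5 and 3 rested spleens. Counts of cell type markers called are given with all libraries only. All 7 marrow markers checked were above 0 in every control marrow and all 7 spleen markers in every control spleen. The samples are called biological replicates by the submitters, and the p-values measure the spread between them.

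Sequence upstream of 4 of the genes is shown because they carry the contrasts described below: Ptgr1 and Ptges2 were higher and Hpgds lower in both tissues after 10 defeats, and Ptgs2 stayed near 0. The windows come from RefSeq (GRCm38.p6), which matched all 10 genes, cover up to 250 bases before the annotated start, and leave out bases inside an annotated exon of the gene itself. Ptgr1 lies at chr4:58987120-58987328 on the minus strand, Hpgds at chr6:65144909-65144980 on the minus strand, Ptges2 at chr2:32395640-32395889 on the plus strand and Ptgs2 at chr1:150099781-150100030 on the plus strand. Capitals mark matches, on either strand, to any of the motifs searched.
Ptgr1: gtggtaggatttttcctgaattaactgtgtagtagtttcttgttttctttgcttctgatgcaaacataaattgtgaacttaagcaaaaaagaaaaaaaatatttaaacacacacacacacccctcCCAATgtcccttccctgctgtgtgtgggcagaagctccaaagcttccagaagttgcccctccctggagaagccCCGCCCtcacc
Hpgds: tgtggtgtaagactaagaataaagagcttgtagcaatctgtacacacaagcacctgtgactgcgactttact
Ptges2: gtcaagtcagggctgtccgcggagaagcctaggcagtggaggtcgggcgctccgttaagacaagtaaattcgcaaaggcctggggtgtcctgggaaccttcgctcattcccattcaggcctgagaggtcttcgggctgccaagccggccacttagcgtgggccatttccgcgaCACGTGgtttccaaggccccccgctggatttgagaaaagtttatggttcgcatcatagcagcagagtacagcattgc
Ptgs2: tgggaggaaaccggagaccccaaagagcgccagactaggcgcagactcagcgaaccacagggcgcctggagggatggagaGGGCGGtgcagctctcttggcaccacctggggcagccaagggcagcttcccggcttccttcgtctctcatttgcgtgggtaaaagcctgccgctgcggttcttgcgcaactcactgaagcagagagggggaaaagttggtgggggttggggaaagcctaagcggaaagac

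In GRCm38 with GENCODE M21 the gene bodies lie at chr2:36230426-36252272 (Ptgs1, plus strand), chr1:150100031-150108227 (Ptgs2, plus), chr6:65117293-65144908 (Hpgds, minus), chr2:30889471-30929863 (Ptges, minus) and chr2:32395896-32405772 (Ptges2, plus). Those of the others are chr10:128058954-128077272 (Ptges3, plus), chr6:38875404-39084585 (Tbxas1, plus), chr8:56294585-56321043 (Hpgd, plus), chr9:102988712-103096002 (Slco2a1, plus) and chr4:58965439-58987119 (Ptgr1, minus).

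The motifs were searched on both strands. The TATA box, TATAAA, was held by 12.37% of 32851 promoters of that length. The CCAAT box, which is named by its letters, was held by 33.85%. For the GC box, GGGCGG, the share was 32.74%. The binding motif of GATA factors, GATAA, was held by 22.58%. The core of the antioxidant response element, TGACNNNGC, was held by 10.16%. The E-box, CACGTG, was held by 6.021%. The cyclic AMP response element, TGACGTCA, was held by 1.546%. No motif overlapped another in the 4 windows. The Ptgr1 window held a CCAAT box at -125 and a GC box at -52, counted from the start, with a further GC box at -39 in the exon that is left out. Ptges2 held an E-box at -77 and Ptgs2 a GC box at -170. Neither the printed stretch of Hpgds nor the rest of its window, nor that of Ptgs1, held any of them. Of the genes not shown, Slco2a1 and Tbxas1 were the only members with a TATA box, at -29 and -11, and no member held the GATA, antioxidant or cyclic AMP motif. By the rule on exons no base of the Slco2a1 window was kept, so its TATA box lies in the part left out.

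The level of each gene in undefeated mice sets the scale for the comparisons. In control spleen, Hpgd (58.2 ± 14.1, SD, n = 4) and Ptges3 (54.4 ± 7.81) stood highest, and their values overlapped. Ptgs1 (19.4 ± 0.915) stood above Slco2a1 (14.3 ± 2.02), Tbxas1 (11.2 ± 1.71), Hpgds (7.78 ± 1.82) and Ptges2 (7.62 ± 0.835), each of which overlapped its neighbour in this order except Ptgs1. Ptges (3.69 ± 0.487) and Ptgr1 (2.51 ± 0.123) were lower without overlap, and Ptgs2 was at 0.0578 ± 0.00594. In control marrow the order was Ptges3 (54.0 ± 3.85, SD, n = 3), Ptgs1 (20.4 ± 3.28), Ptgr1 (14.5 ± 0.676), Tbxas1 (13.4 ± 1.79), Hpgd (12.3 ± 0.664), Ptges2 (9.21 ± 0.748), Hpgds (3.17 ± 0.365), Ptges (2.80 ± 0.0939), Slco2a1 (0.400 ± 0.338) and Ptgs2 (0.0884 ± 0.0476). There Ptgr1 overlapped Tbxas1, Tbxas1 overlapped Hpgd, and Hpgds overlapped Ptges.

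Control spleen differed from control marrow in 4 of the 9 members tested, 3 higher and 1 lower, where 46.2% of all genes were called, 27.1% higher and 19.2% lower. Slco2a1 is among the 3 but passed the filter on low values through spleen alone, so its difference is given as values. Slco2a1, the prostaglandin uptake carrier, had 14.8, 14.7, 11.5 and 16.2 in control spleens, against 0.230, 0.181 and 0.790 in control marrows. Its log2 fold change depends on the pseudocount, at 3.47 with 1 and 5.04 with 0.1. Hpgd, the dehydrogenase that oxidises prostaglandins after uptake, had 48.2, 77.0, 60.8 and 46.7 in control spleens, against 12.4, 13 and 11.6 in control marrows (log2 fold change 2.12 ± 0.24, adjusted p = 1.59e-08). Carrier and dehydrogenase were thus higher in spleen in every library, while the reductase Ptgr1 ran the other way. Ptgr1, which reduces the oxidised prostaglandins and also inactivates leukotriene B4, had 2.61, 2.44, 2.62 and 2.38 in control spleens, against 15.1, 14.6 and 13.8 in control marrows (-2.14 ± 0.28, adjusted p = 2.01e-07). Hpgds, the haematopoietic prostaglandin D synthase, was higher in spleen by 1.06 ± 0.23 (adjusted p = 0.000337). For Ptgs1, Ptges, Ptges2, Ptges3 and Tbxas1 the fold changes lay between -0.25 and 0.30 and did not pass, with 95% intervals reaching from -0.68 to 0.87. The markers fixed for stroma and endothelium also differed between the tissues: the 10 endothelial genes summed to 179.1 to 208.2 in control spleens and 49.38 to 53.42 in control marrows. The 10 neutrophil markers, all lower in spleen, summed to 228.9 to 473.7 in control spleens and 56080 to 64970 in control marrows. The 12 tissue macrophage markers, 11 of them higher in spleen, summed to 1578 to 1734 and 377.1 to 498.9. The part of these cells in the differences of Slco2a1, Ptgr1, Hpgds and Hpgd was not tested.

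**Figure D1:**
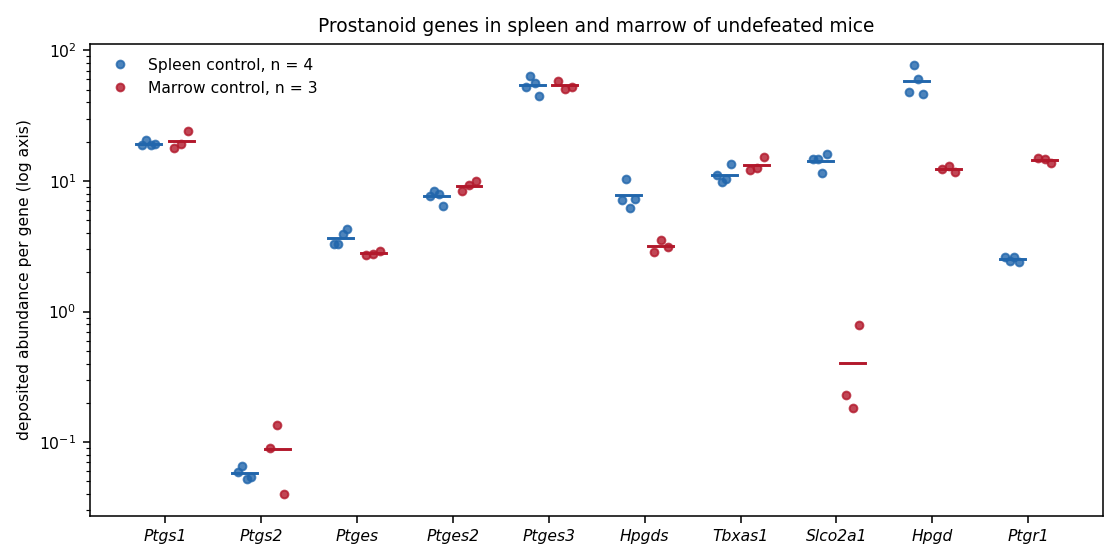
Deposited abundance of each gene (log axis) in control spleen (blue, n = 4) and control marrow (red, n = 3), with a point per library and a bar at the mean. Slco2a1, Hpgd and Hpgds stand higher in spleen and Ptgr1 lower, and Ptgs2 lies near the bottom in both.

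Ptgs1, the constitutive cyclooxygenase gene, was above Ptgs2 in all 19 marrow and all 18 spleen libraries. Ptgs2, the inducible gene, did not reach a value of 1 in any library and was below the filter in both tissues, so it had no test. Its values ran between 0 and 0.561 in marrow and between 0 and 0.273 in spleen, about 9.197 and 5.1 estimated reads at the median, and 1 library in each tissue was listed at 0. In marrow it had 0.209, 0.230, 0.210 and 0.113 after 1xStress, against 0.0901, 0.135 and 0.0399 in controls, and the groups overlapped. The 4xStress marrows, at 0 to 0.0354, all lay below these controls. The 1xStress spleens, at 0.0699 and 0.273, lay above the control spleens at 0.0520 to 0.0654. At so few reads these orders are not tested. The highest value, 0.561, was that of 10xStress marrow D10.

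Ptgs1 fell in spleen after 10 defeats and was not called in marrow, with all libraries on the deposited scale. The 10xStress spleens had 9.55 to 15.6 with a median of 10.4, against 18.8, 20.7, 18.8 and 19.2 in control spleens. Every 10xStress spleen lay below every control (log2 fold change -0.71 ± 0.24, adjusted p = 0.0186). The call was lost without the 5 steep libraries (-0.60 ± 0.34, adjusted p = 0.203), with quantile normalization (-0.45, adjusted p = 0.122) and with median-ratio rescaling (-0.26, adjusted p = 0.334). In marrow the 10xStress values of 26.0, 31.2, 26.2, 17.6 and 21.1 overlapped the controls at 17.8, 19.3 and 24.1 (0.24 ± 0.16, adjusted p = 0.240). The 4xStress marrows did not pass (0.39 ± 0.18, adjusted p = 0.127), but did with median-ratio rescaling (0.53, adjusted p = 0.0430) and without D11 (0.55, adjusted p = 0.0421). The rested marrows, at 25.0 to 32.4, all lay above the controls but did not pass (0.46 ± 0.17, adjusted p = 0.247). The difference of the 10xStress effect, spleen minus marrow, was -0.95 ± 0.30 (adjusted p = 0.0122), and -0.83 without the 5 libraries (adjusted p = 0.0744). The 4xStress spleens D13 and D14 disagreed, at 50.9 and 15.9, and D13 also had the higher sums of 12 tissue macrophage markers (3177 against 1386) and of 10 megakaryocyte and platelet markers (440.4 against 203.5). Their part in the Ptgs1 value was not tested.

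After 10 defeats, 6 of the 9 members tested in spleen were called, 3 higher and 3 lower, beside 58.8% of all genes (16.8% higher and 41.9% lower). In marrow 4 of the 8 tested were called, 3 higher and 1 lower, beside 45.8% of all genes (17.5% higher and 28.3% lower). Both shares are near the background, so the count says nothing particular about prostanoid genes. The median change of all genes was -0.36 in spleen and -0.13 in marrow, and it depended on the scaling. In spleen, 28.6% of all calls were higher, against 46.5% with quantile normalization, 53.3% with median-ratio rescaling, 44.9% with the length and GC trends removed and 9.7% with equal totals. These settings moved the median of all genes by 0.301, 0.370, 0.282 and -0.494. In marrow the share of calls that were higher was 38.2% and became 54.6%, 55.4% and 53.9% under the first 3 of these, with shifts of 0.144, 0.121 and 0.118, and 33.0% with equal totals.

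**Figure D2:**
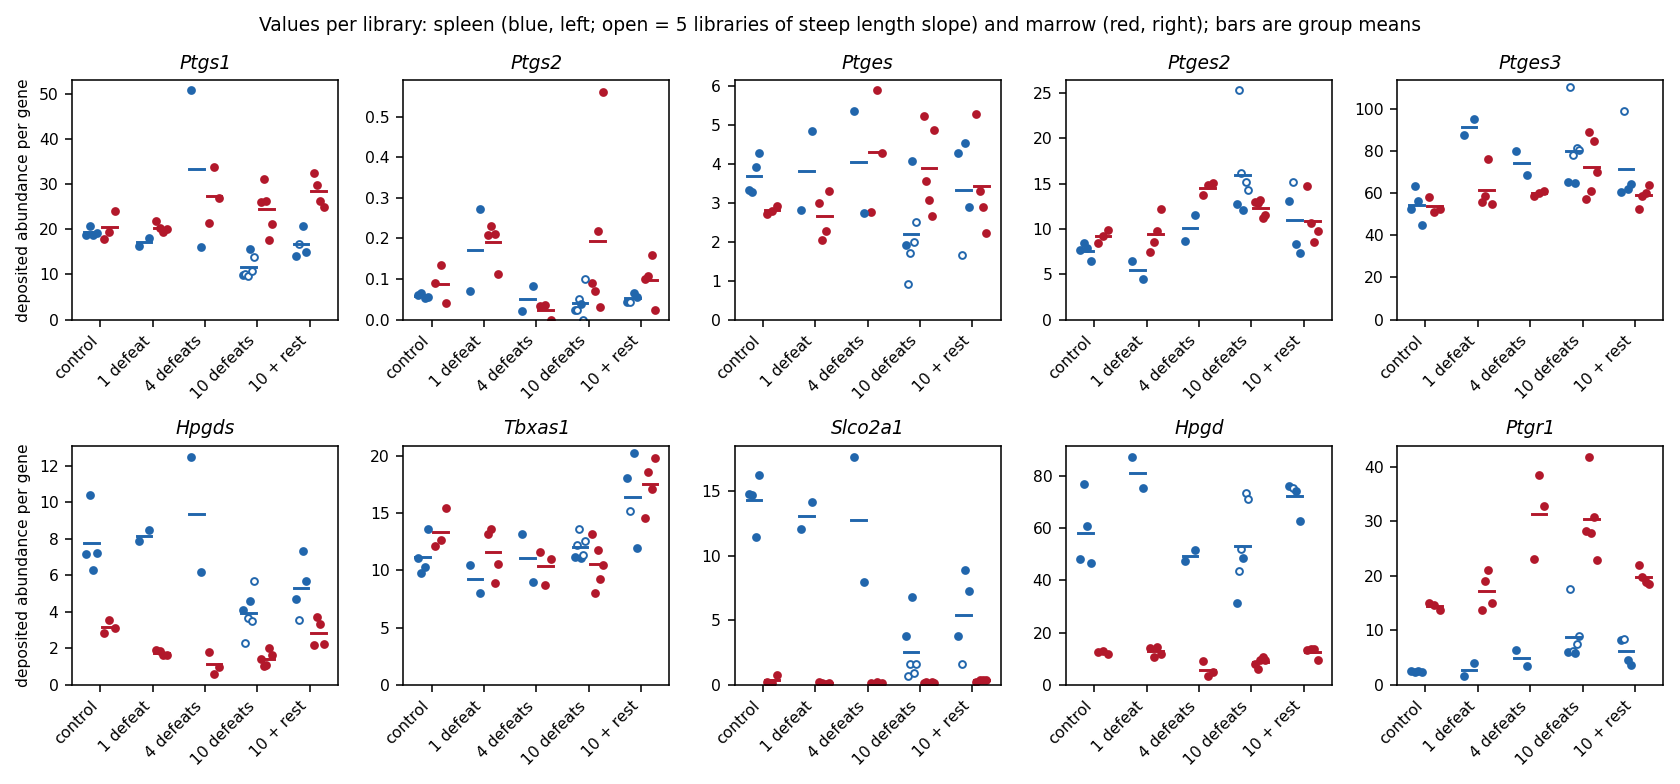
Deposited abundance of the 10 genes in every library by group, spleen in blue on the left and marrow in red on the right, with bars at group means. Open points are the 5 spleen libraries with steep length slopes, and they include the highest Ptges2, Ptges3 and Ptgr1 values and the lowest Slco2a1 values in spleen.

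Hpgds, which makes prostaglandin D2 in mast cells, macrophages and megakaryocytes, was lower in both tissues. In marrow it had 1.83, 0.598 and 0.995 after 4xStress, against 2.84, 3.56 and 3.11 in controls, without overlap (-0.999 ± 0.20, adjusted p = 0.00455). The 10xStress marrows had 1.40, 1.02, 1.11, 2.04 and 1.66, again all below the controls (-0.78 ± 0.18, adjusted p = 0.00255), and all 15 further settings or omissions of a library kept the call. The 1xStress marrows, at 1.90, 1.87, 1.66 and 1.65, were also all below the controls, but the change did not pass (-0.59 ± 0.19, adjusted p = 0.904). In spleen the 10xStress values of 2.29 to 5.68, median 3.88, lay below the controls at 7.19, 10.4, 6.27 and 7.24 (-0.83 ± 0.23, adjusted p = 0.00652). Measured against the median of all genes this fall was -0.48, and the call was lost without the 5 libraries (-0.70 ± 0.25, adjusted p = 0.0602), with quantile normalization (-0.35), median-ratio rescaling (-0.44) and the trends removed (-0.43). The effect did not differ detectably between the tissues (spleen minus marrow -0.05, 95% interval -0.65 to 0.55).

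Markers of cells that could hold Hpgds moved with it only in part, in marrow as in spleen. In marrow the 12 tissue macrophage markers summed to 184.7 to 348.2 after 4xStress and 377.1 to 498.9 in controls, and 9 of the 12 fell. After 10xStress they summed to 254.6 to 340.4 and 8 of the 12 fell. The 9 mast cell and basophil markers, 7 of them tested, summed to 122.5 to 227.4 in 4xStress marrows (5 fell). They summed to 206.7 to 377.5 in 10xStress marrows (1 rose and 3 fell) and 292.5 to 306.5 in controls. The median sum after 10xStress, 346.1, was above that of controls, 300.6, and Tpsb2 was at 0 in all 3 controls. The 10 megakaryocyte and platelet markers summed to 69.01 to 265.8 in 4xStress marrows (1 fell), 106.5 to 257.5 in 10xStress marrows (4 fell) and 257.1 to 377.2 in controls. In spleen after 10xStress, 5 of the 12 macrophage markers fell and none rose (993.9 to 1758, against 1578 to 1734 in controls). That share is near the 41.9% of all genes that were lower there. The other two lists went the other way there: 4 megakaryocyte and platelet markers rose and 1 fell (339.4 to 625.3, against 141.5 to 198.8), and 4 mast cell and basophil markers rose and 1 fell (18.32 to 44.85, against 12.5 to 17.8). Their part in the Hpgds result was not tested.

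With rest, Hpgds in marrow had 2.17, 3.71, 3.32 and 2.22, against 1.40, 1.02, 1.11, 2.04 and 1.66 in 10xStress marrows. Every rested value lay above every 10xStress value (0.65 ± 0.16, adjusted p = 0.0124), and the call was lost with quantile normalization (0.40, adjusted p = 0.0684) and without rested D2 (0.55, adjusted p = 0.0521). The tissue macrophage markers summed to 287.9 to 426.0 in rested marrows and 254.6 to 340.4 in 10xStress marrows, and 1 of 12 rose. All 10 megakaryocyte and platelet markers rose, summing to 410.2 to 1114 in rested marrows and 106.5 to 257.5 in 10xStress marrows. Of all genes 13.8% were higher in this comparison. Rested spleens had 4.70, 3.57, 7.33 and 5.72 and did not pass against 10xStress spleens (0.35 ± 0.23, adjusted p = 0.356).

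Of the 3 genes annotated as prostaglandin E synthases, Ptges2 and Ptges3 were called higher after 10xStress in both tissues and Ptges in neither, with all libraries on the deposited scale. Ptges, the inducible membrane-bound enzyme that works with Ptgs2, had 0.916 to 4.08 with a median of 1.95 in 10xStress spleens, against 3.31, 3.27, 3.92 and 4.27 in controls, and D4 alone reached the control range (-0.62 ± 0.26, adjusted p = 0.0533; without the 5 libraries -0.28 ± 0.28, adjusted p = 0.462). Ptges was called lower in 10xStress spleens with equal totals (-1.11, adjusted p = 0.0365), with only the groups compared (adjusted p = 0.0445) and without D4 (-0.76, adjusted p = 0.0123). In marrow it had 5.23, 3.56, 3.06, 2.67 and 4.87 after 10xStress, against 2.71, 2.78 and 2.90 in controls (0.33 ± 0.22, adjusted p = 0.232). With quantile normalization it was called higher in marrow after 10xStress (0.62, adjusted p = 0.0268) and after 4xStress (0.72, adjusted p = 0.0448). The spleen effect minus the marrow effect was -0.95 ± 0.36 (adjusted p = 0.0327), and it did not pass without the 5 libraries (-0.61, adjusted p = 0.209), with quantile normalization (-0.68, adjusted p = 0.0728), with no filter (adjusted p = 0.0550) or in 7 of 18 omissions of 1 library: marrow C1, C2, C4, D5 or D10 and spleen C4 or D6 (adjusted p = 0.0526 to 0.0638).

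Ptges2, a further membrane-associated enzyme, was higher after 10 defeats in both tissues. The 10xStress spleens had 12.1 to 25.4 with a median of 14.7, against 7.62, 8.45, 7.93 and 6.47 in controls (0.94 ± 0.22, adjusted p = 0.00281; without the 5 libraries 0.64 ± 0.22, adjusted p = 0.0490). All 6 lay above all 4 controls, although with equal totals the change was 0.26 (adjusted p = 0.430). In marrow the 4xStress values of 13.8, 14.8 and 15.1 and the 10xStress values of 13, 12.8, 13.2, 11.2 and 11.5 all lay above the controls at 8.44, 9.27 and 9.93. The changes there were 0.61 ± 0.16 after 4xStress (adjusted p = 0.0165) and 0.39 ± 0.14 after 10xStress (adjusted p = 0.0371). Without C1, D12 or D14 the first did not pass (adjusted p = 0.0536, 0.0650 and 0.0517), and without any of C1, C2, C4, D5, D6 or D7 the second did not (adjusted p = 0.0585 to 0.129). With equal totals neither passed (adjusted p = 0.0589 after 4xStress and 0.171 after 10xStress), and with no filter the second did not (adjusted p = 0.0652). In 10xStress spleens 10 of the 11 erythroid markers rose, summing to 48490 to 394000 against 44070 to 119200 in controls, and the library with the highest Ptges2, D6, had 362900. In 10xStress marrows these markers went the other way: 7 of the 11 fell and 0 rose, summing to 78540 to 179600 against 226400 to 291200 in controls. Their part in the Ptges2 and Ptges3 results was not tested. Of all genes, 16.8% were higher in spleen and 28.3% lower in marrow after 10xStress.

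Ptges3 encodes p23, a co-chaperone of Hsp90 that also has prostaglandin E synthase activity. Of its 31-base words, 20.59% also occur in transcripts of 4 other genes, 450 of them in the pseudogene Ptges3-ps, so its values may hold reads of other loci. It had 65.0 to 110.5 with a median of 79.5 in 10xStress spleens, against 52.6, 63.7, 56.2 and 44.9 in controls, without overlap (0.54 ± 0.19, adjusted p = 0.0210). This direction turned with equal totals (-0.20), and without the 5 libraries the change was 0.27 ± 0.15 (adjusted p = 0.183). The 1xStress spleens, at 87.7 and 95.2, were also above the controls but did not pass (0.75 ± 0.25, adjusted p = 0.170). Without the 5 libraries the same change did (SE 0.15, adjusted p = 0.0140), as with quantile normalization (0.91, adjusted p = 0.0199) and only the groups compared (adjusted p = 0.0255). Over the other settings it ran from 0.28 to 0.91. The 1xStress spleens had lower slopes of log2 value per 10% GC (-0.514 and -0.493) than control spleens (-0.134 to 0.144). The part of this trend in the Ptges3 values was not tested. In marrow the 10xStress values of 57.4, 89.3, 60.9, 84.8 and 70.0 overlapped the controls at 58.3, 51.0 and 52.5 (0.40 ± 0.14, adjusted p = 0.0242), and without any of C2, C4, D6 or D9 the call was lost (adjusted p = 0.0574 to 0.0869), as it was with quantile normalization (0.30, adjusted p = 0.0701), equal totals (0.35, adjusted p = 0.0764) and only the groups compared (adjusted p = 0.0503).

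Tbxas1, the thromboxane synthase of platelets and macrophages, was not called between any stressed group and controls with all libraries on the deposited scale. In 10xStress spleens the change was 0.10 ± 0.16 (adjusted p = 0.615), but 0.54 with median-ratio rescaling (adjusted p = 0.0199). In 10xStress marrows it was -0.33 ± 0.16 (adjusted p = 0.0952), but -0.41 without D5 (adjusted p = 0.0425). Tbxas1 rose in marrow with rest: the rested marrows had 14.6, 18.6, 17.1 and 19.8, against 13.1, 7.98, 11.8, 9.26 and 10.5 in 10xStress marrows. All rested values lay above all 10xStress values (0.69 ± 0.14, adjusted p = 0.00524), and all 16 settings and omissions kept the call, at 0.58 to 0.89. Against controls at 12.1, 12.6 and 15.4 the rested marrows did not pass (0.36 ± 0.16, adjusted p = 0.328). The 10 megakaryocyte and platelet markers summed to 410.2 to 1114 in rested marrows and 106.5 to 257.5 in 10xStress marrows. All 10 rose, beside 13.8% of all genes. In spleen the rested group had 18, 15.2, 20.2 and 11.9, against 11.1 to 13.6 with a median of 11.8 after 10xStress (0.40 ± 0.16, adjusted p = 0.186; without the 5 libraries 0.52 ± 0.23, adjusted p = 0.349), and the megakaryocyte and platelet sum was 442.2 to 1524 and 339.4 to 625.3. The part of these cells in the Tbxas1 values was not tested. Against control spleens rested Tbxas1 did not pass (0.50 ± 0.18, adjusted p = 0.0933). It did with quantile normalization (0.71, adjusted p = 0.0260), median-ratio rescaling (0.73, adjusted p = 0.0420), the trends removed (0.62, adjusted p = 0.0434) and without rested D8 (0.63, adjusted p = 0.0489).

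**Figure D3:**
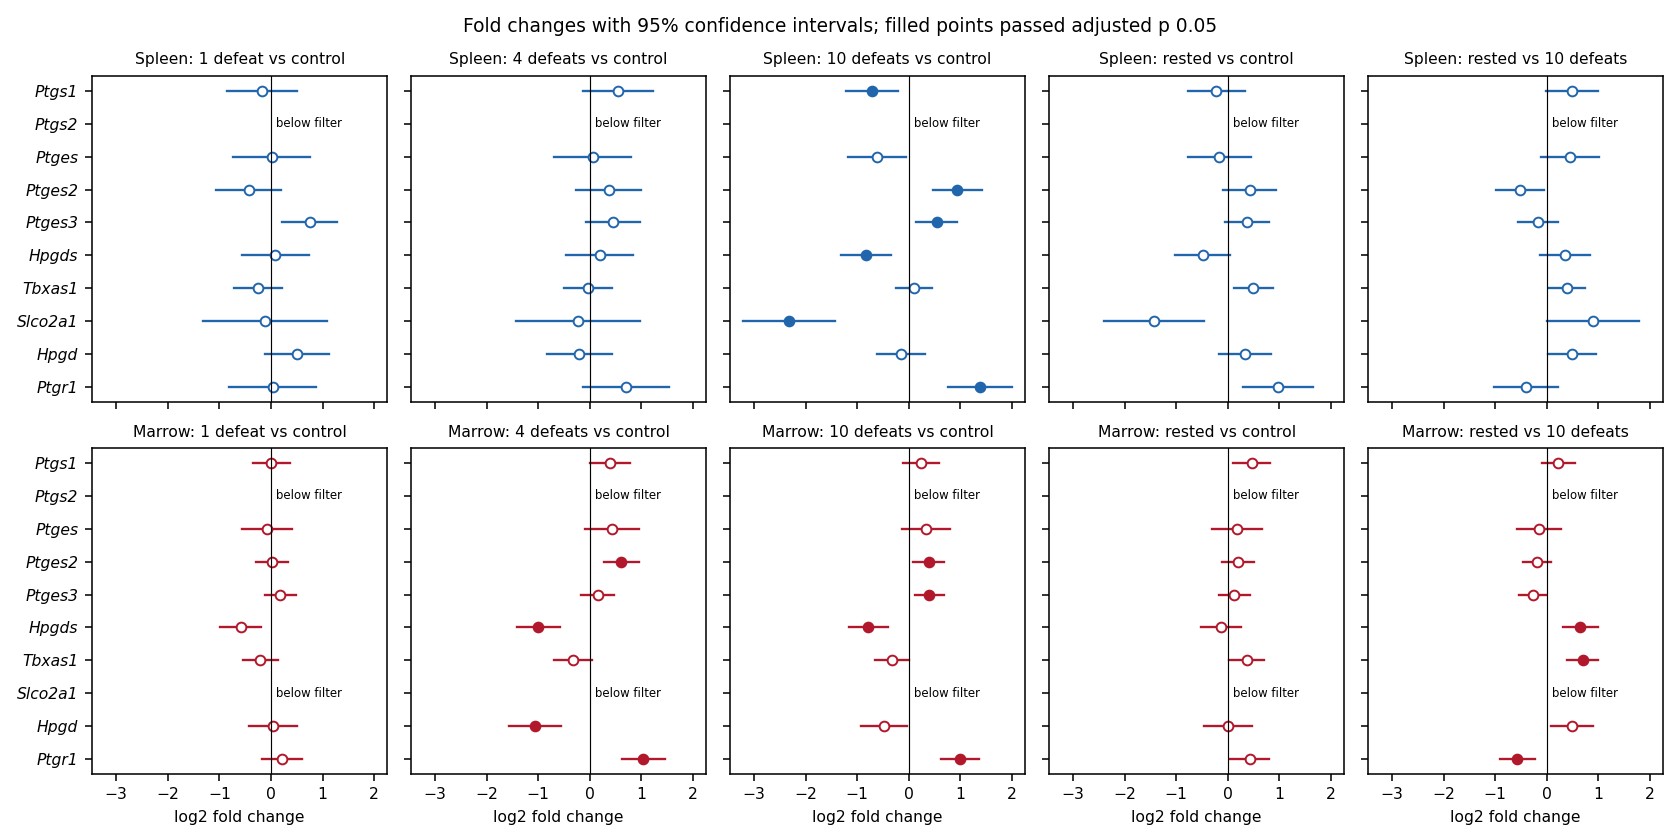
Log2 fold change of each gene in the 5 comparisons of each tissue, with 95% confidence intervals, spleen above and marrow below. Filled points passed an adjusted p of 0.05, and the fall of Slco2a1 after 10 defeats in spleen (-2.32) is the largest of them.

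Slco2a1 had the largest change with defeat of any member. The 10xStress spleens had 0.662 to 6.82 with a median of 1.61, against 14.8, 14.7, 11.5 and 16.2 in controls, so that the highest stressed value lay below the lowest control (-2.32 ± 0.42, adjusted p = 0.000658). The call held in all 18 further settings and omissions, at -2.85 to -1.31, the smallest being without the 5 steep libraries (-1.31 ± 0.33, adjusted p = 0.0172). The remaining 10xStress spleens, D4 and D5, had 6.82 and 3.80. The rested spleens had 3.81, 1.59, 8.91 and 7.25, also all below the controls, but the change did not pass (-1.43 ± 0.46, adjusted p = 0.0663). Without the 5 libraries it did (-1.05 ± 0.29, adjusted p = 0.0299), as it did without rested D3 (-1.70, adjusted p = 0.0452). Rested against 10xStress spleens gave 0.89 ± 0.42 (adjusted p = 0.229), and 1.16 without 10xStress D4 (adjusted p = 0.0445).

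Endothelial markers fell beside Slco2a1. Slco2a1 is known from vascular endothelium, and the 10 markers summed to 79.68 to 143.8 in 10xStress spleens, 122.1 to 167.3 in rested spleens and 179.1 to 208.2 in controls. In the 10xStress comparison 9 of the 10 fell, with a median of -1.55, beside 41.9% of all genes, and Slco2a1 fell by 2.32. Other lists fell too: 8 of 8 stroma markers tested (median -1.57), 9 of 10 T cell markers (-2.13) and all 10 B cell markers (-1.96). Erythroid and neutrophil markers went the other way, with 10 of 11 and 8 of 10 higher, beside 16.8% of all genes. The part of any of these cells in the Slco2a1 result was not tested. Marker calls were not rerun without the 5 steep libraries, where 2071 of 13649 genes were lower. In marrow Slco2a1 was below the filter at 0.062 to 0.790. No marrow library reached 1, so a fall there could not have been seen, and the effects in the tissues are not compared.

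**Figure D4:**
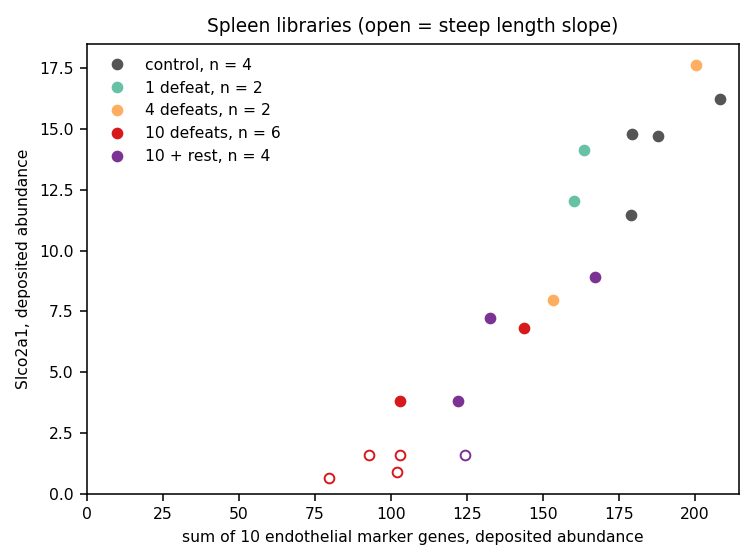
Slco2a1 abundance against the summed abundance of 10 endothelial marker genes in the 18 spleen libraries, coloured by group. The 10xStress libraries lie at the lower left, with sums of 79.68 to 143.8, and the controls at the upper right, with sums of 179.1 to 208.2.

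Hpgd was lower in marrow after 4 defeats. It had 9.14, 3.42 and 4.75 in 4xStress marrows, against 12.4, 13 and 11.6 in controls, without overlap (-1.07 ± 0.24, adjusted p = 0.00754), and leaving out D12 lost the call (-0.80, adjusted p = 0.0516). The 10xStress marrows, at 8.15, 5.93, 9.39, 10.8 and 9.41, were also all below the controls but did not pass (-0.48 ± 0.21, adjusted p = 0.0747). With only the groups compared they did (adjusted p = 0.0305). Rested marrows had 13.2, 13.6, 13.8 and 9.58, a difference of 0.48 ± 0.20 from 10xStress marrows (adjusted p = 0.0818). With equal totals this difference passed (0.68, adjusted p = 0.0246). In spleen the 10xStress values of 31.2 to 73.3 overlapped the controls at 46.7 to 77.0 (-0.15, 95% interval -0.62 to 0.31). Without the 5 libraries the change was -0.54 ± 0.22 (adjusted p = 0.0868), and with equal totals it was called lower (-0.89, adjusted p = 0.0345).

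Ptgr1 rose in both tissues, and its calls after 4 defeats in marrow and after 10 defeats in marrow and spleen held in every setting and omission run. In marrow it had 23.0, 38.4 and 32.8 after 4xStress, against 15.1, 14.6 and 13.8 in controls (1.04 ± 0.20, adjusted p = 0.00381). The 10xStress marrows had 28.3, 41.8, 27.9, 30.8 and 22.9, and each lay above every control (0.99 ± 0.18, adjusted p = 0.000481). With rest the values were 22.1, 19.8, 18.8 and 18.4, all below the 10xStress values (-0.57 ± 0.16, adjusted p = 0.0203) and all above the controls (0.42 ± 0.18, adjusted p = 0.312). The fall with rest did not pass with equal totals (-0.37) or without 10xStress D6 or rested D2, D3 or D8 (adjusted p = 0.0518 to 0.0539).

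In spleen Ptgr1 had 5.85 to 17.6 with a median of 6.93 after 10xStress, against 2.61, 2.44, 2.62 and 2.38 in controls (1.37 ± 0.29, adjusted p = 0.00165; without the 5 libraries 0.99 ± 0.30, adjusted p = 0.0348). No value overlapped. The 4xStress spleens had 6.32 and 3.41 (0.70 ± 0.39, adjusted p = 0.653) and the rested spleens 8.24, 8.34, 4.47 and 3.71 (0.97 ± 0.32, adjusted p = 0.0722; without the 5 libraries 0.82 ± 0.27, adjusted p = 0.0519). Relative to the median of all genes the 10xStress rise was 1.73 in spleen and 1.12 in marrow. The effects did not differ detectably between the tissues (spleen minus marrow 0.38, 95% interval -0.35 to 1.12).

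Neutrophil markers rose beside Ptgr1. The 10 markers summed to 105100 to 192200 in 4xStress marrows, 134500 to 252500 in 10xStress marrows, 78850 to 125300 in rested marrows and 56080 to 64970 in controls. After 10xStress 9 of the 10 rose, beside 17.5% of all genes. In spleen they summed to 1234 to 89700 after 10xStress, with D6, the library with the highest Ptgr1, at the top, and to 228.9 to 473.7 in controls. Rested spleens summed to 5631 to 87310, and 8 of the 10 markers rose against controls, where 421 of 13945 genes were higher. Ptgr1 there, at 3.71 to 8.34, lay above every control but did not pass. It did with quantile normalization (1.21, adjusted p = 0.0428) and with only the groups compared (adjusted p = 0.0397). The part of neutrophils in the Ptgr1 result was not tested.

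**Figure D5:**
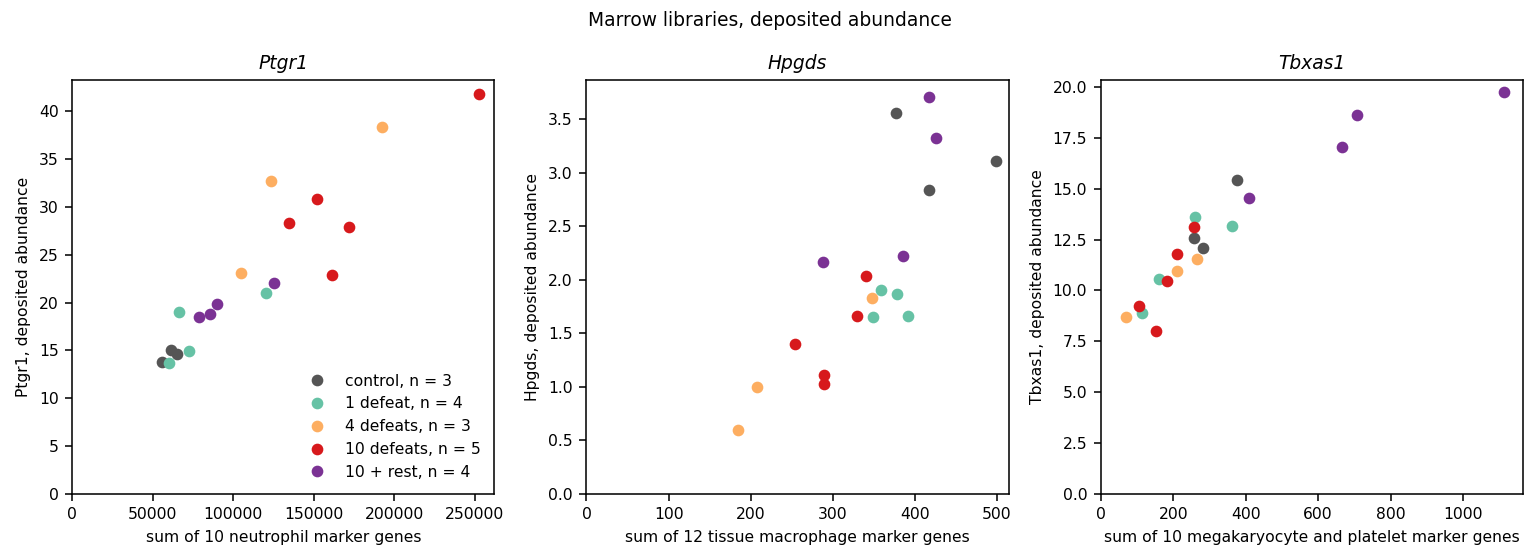
Abundance of Ptgr1, Hpgds and Tbxas1 in the 19 marrow libraries against the summed abundance of neutrophil, tissue macrophage, and megakaryocyte and platelet markers, coloured by group. The 10xStress libraries have neutrophil sums of 134500 to 252500 with Ptgr1 of 22.9 to 41.8, and the rested libraries have platelet marker sums of 410.2 to 1114 with Tbxas1 of 14.6 to 19.8.

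The comparisons with fewer calls gave the following. After 1xStress no member was called in marrow (0 of 8, with 1 at an unadjusted p under 0.05, beside 0.00804% of all genes) or in spleen (0 of 9, with 1 unadjusted, beside 0.688%). After 4xStress 4 of 8 were called in marrow, 2 higher and 2 lower, beside 20.0% of all genes (7.07% higher and 13% lower), and 0 of 9 in spleen, with 0 unadjusted, beside 0.0430%. In marrow 35.3% of all calls after 4xStress were higher, against 57.4%, 59.5% and 59.1% with quantile normalization, median-ratio rescaling and the trends removed. Rested against 10xStress marrow called 3 of 8, 2 higher and 1 lower, beside 21.7% (13.8% higher and 7.91% lower), where 63.6% of all calls were higher, against 44.2%, 43.5% and 40.1% in the same 3 settings and 93.6% with equal totals. Rested against 10xStress spleen called 0 of 9 (3 unadjusted, beside 0.567%). Rested against control called 0 of 8 in marrow (3 unadjusted, beside 0.00%) and 0 of 9 in spleen (3 unadjusted, beside 7.26%). The shares beside these counts are of all genes at the adjusted threshold, so unadjusted counts need their own background. In marrow, an unadjusted p under 0.05 was held by 535 of 12442 genes after 1xStress and 1768 for rested against control. In spleen it was held by 2104 of 13945 genes after 1xStress and 1314 after 4xStress. Rested spleens gave 3081 against 10xStress and 4095 against control.

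The difference of the 10xStress effect between tissues called 3 of 9 members, none higher and 3 lower in spleen, beside 43.1% of all genes (16.1% higher and 27.0% lower). Slco2a1 is 1 of the 3 and, for its level in marrow, is not read as a difference. With equal totals 17.4% of those calls were higher, against 37.3%. The difference of the change with rest called 0 of 9, beside 10.2% of all genes. At an unadjusted p under 0.05 it held 0 members, beside 3706 of 14513 genes. These comparisons share their control or 10xStress samples, and each gene's values above stand side by side for that reason.

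Genes next to the members in the pathway were read from fixed lists. Their counts after 10xStress stand beside 17.5% higher and 28.3% lower of all genes in marrow, and 16.8% higher and 41.9% lower in spleen. Counts in spleen without the 5 libraries stand beside 1172 genes higher and 2071 lower of 13649 tested. Of 9 further synthases, reductases and transporters, 6 were tested in marrow, where 2 rose and 2 fell after 10xStress, and 8 in spleen, where 2 rose and 1 fell. Cbr1, a carbonyl reductase that acts on prostaglandins, fell in marrow (-0.85 ± 0.19, adjusted p = 0.0020) and rose in spleen (0.80 ± 0.19, adjusted p = 0.00276), and this difference passed its own test (spleen minus marrow 1.65 ± 0.27, adjusted p = 2.43e-05). Akr1b3, an aldo-keto reductase that can make prostaglandin F2-alpha, moved the other way, at 0.43 ± 0.13 in marrow (adjusted p = 0.0146) and -0.46 ± 0.15 in spleen (adjusted p = 0.0162), a difference of -0.88 ± 0.19 (adjusted p = 0.000487). Ptgr2, which shares the reductase step with Ptgr1, changed by -0.26 ± 0.09 in marrow (adjusted p = 0.0291) and 0.52 ± 0.14 in spleen (adjusted p = 0.00672), a difference of 0.78 ± 0.16 (adjusted p = 0.000423). Without the 5 libraries none of the 7 genes then tested in spleen was called, Cbr1, Akr1b3 and Ptgr2 standing at 0.35, -0.34 and 0.36 (adjusted p = 0.106, 0.126 and 0.0589), while their tissue differences passed at 1.2, -0.76 and 0.62 (adjusted p = 0.000999, 0.00473 and 0.00130).

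Of the 9 receptor genes 6 were tested in each tissue. After 10xStress 1 rose and 1 fell in marrow, and 1 rose and 4 fell in spleen. Tbxa2r, the thromboxane receptor, was at 1.36 ± 0.503 in 10xStress marrows and 3.38 ± 0.401 in controls, a fold change of -0.91 ± 0.22 (adjusted p = 0.00362). In spleen Tbxa2r was at 4.92 ± 3.77 after 10xStress (n = 6) and 12.8 ± 2.13 in controls (-1.50 ± 0.43, adjusted p = 0.00814). Ptgir, the prostacyclin receptor, was at 12 ± 1.33 in 10xStress marrows and 6.40 ± 0.529 in controls (0.81 ± 0.17, adjusted p = 0.00168). Ptger2 and Ptger4, receptors for prostaglandin E2 that raise cyclic AMP, fell in spleen, by 0.49 and 0.69 on the log2 scale (adjusted p = 0.00806 and 0.0125). Without the 5 libraries no receptor was called in spleen, and Tbxa2r, Ptger2 and Ptger4 stood at -0.48, -0.37 and -0.28 (adjusted p = 0.122, 0.170 and 0.214).

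Of 11 genes that release arachidonate or break down related lipids, 8 were tested in marrow, where 3 rose and 5 fell after 10xStress, and 10 in spleen, where 2 rose and 6 fell. Mgll, which frees arachidonate from an endocannabinoid, fell in marrow by 1.01 (adjusted p = 0.000940) and rose in spleen by 0.84 (adjusted p = 0.00644). Faah, another hydrolase of this kind, fell in marrow by 0.92 and in spleen by 1.46 (adjusted p = 0.00157 and 0.000623). Pla2g4c, a cytosolic phospholipase A2, fell by 0.73 in marrow (adjusted p = 0.00142) and rose by 0.95 in spleen (adjusted p = 0.000315), a difference of 1.68 ± 0.21 (adjusted p = 7.31e-07). Pla2g2d, a secreted phospholipase A2 of lymphoid tissue, fell in spleen by 1.55 (adjusted p = 0.00613). Without the 5 libraries 2 rose and 1 fell in spleen: Pla2g4c (1.02, adjusted p = 0.00606), Mgll (0.82, adjusted p = 0.0485) and Faah (-0.87, adjusted p = 0.0174) passed, and Pla2g2d did not (-0.57, adjusted p = 0.0751).

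Since Ptges3 is a co-chaperone, 9 genes of Hsp90 and its partners were also read. All 9 were tested in each tissue, and after 10xStress 2 rose and 0 fell in marrow and 3 rose and 1 fell in spleen. In spleen after 10xStress Fkbp5 fell by 2.02 (adjusted p = 0.00360), while Ahsa1, an activator of Hsp90, rose by 0.56 (adjusted p = 0.00853). Without the 5 libraries 6 rose and 0 fell in spleen, with Ahsa1 at 0.51 (adjusted p = 0.0260) and Fkbp5 at -1.09 (adjusted p = 0.124).

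The median log2 changes after 10xStress were 0.08 in marrow and 0.03 in spleen for the further synthases, reductases and transporters, -0.09 and -0.50 for the receptors, and -0.76 and -0.71 for arachidonate release, beside -0.13 and -0.36 for all genes. With rest, Tbxa2r rose in marrow against 10xStress (0.93 ± 0.20, adjusted p = 0.00636), as did Cbr1 (0.62 ± 0.17, adjusted p = 0.0182), Mgll (0.84 ± 0.18, adjusted p = 0.00615) and Pla2g4c (0.72 ± 0.14, adjusted p = 0.00337).

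Genes whose pattern was most like that of a member are named by the Pearson correlation of log2(value + 1) over all libraries of a tissue, among protein-coding genes with a mean of at least 2. The libraries share their depth and length trends, so these are descriptions. Over 19 marrow libraries Tbxas1 was most like Gp1ba (r = 0.968), Kalrn (0.967) and Itgb3 (0.959), and Gp1ba and Itgb3 are platelet glycoprotein genes. Hpgds was most like C1qb (0.890), a macrophage complement gene, Maf (0.887) and Abcg3 (0.883). Ptgr1 was most like Tmed3 (0.976), Gapdh (0.972) and Gstm1 (0.970). Over 18 spleen libraries Slco2a1 was most like Gdpd5 (0.996), Tns3 (0.994) and Dpysl3 (0.991), Ptgs1 most like Cfb (0.957), Stard5 (0.934) and Rap2b (0.927), and Ptges2 most like Nhp2 (0.966), Nme6 (0.966) and Pebp1 (0.961).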

How the data were processed

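Bulk polyadenylated RNA of 37 libraries, 19 of marrow and 18 of spleen, was analysed from the table the authors deposited. Its values are a signal, an abundance per gene scaled per library by the authors; the submitters' processing notes name kallisto 0.46.1, sleuth and GRCm38 without their roles, and no source at hand states the exported quantity. It is not a count, so no count test was used. Depth was estimated from the steps of low values in 9751 single-transcript genes over 600 bases long, assuming fragments of 200 bases, with 57.26% to 73.4% of low values within 0.1 of a whole read; it is approximate.

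Values were tested as log2(value + 1) with limma 3.58.1 in R 4.3.3, with trended and robust variance and the 5 groups of a tissue in 1 model, or all 10 groups for comparisons between tissues. Genes needed a value of at least 1 in 3 marrow libraries, or in 2 libraries of spleen or of both tissues, which left 12442, 13945 and 14513 genes. P-values were adjusted by Benjamini-Hochberg over these, with a threshold of 0.05, and the fit was tested on simulated data. The pseudocount understates changes of low genes. All 10 genes are named in every comparison; of each other list, up to 3 genes past the threshold with the smallest p; and for likeness, the 3 most correlated genes. The genes and lists were chosen with earlier results of these data known. Alternatives were 3 other scalings, no filter, a pseudocount of 0.1, removal of length and GC trends, only the groups compared, each library left out, and a block on shared library numbers.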

Additional observations from a re-analysis of the deposited data

Results flagged for a closer look

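In 60 groups of 4 to 6 libraries, 6 values stood far from the rest of their group, where chance gives about 1 in 20 groups. Among 10xStress spleens D6 stood apart for Ptges2 at 25.4, Ptges3 at 110.5 and Ptgr1 at 17.6. D6 also had the highest neutrophil marker sum of its group, 89700, and its highest total of all values, 2375554. Among rested spleens D2 stood apart for Ptges3 at 99.2, and D8 for Hpgd at 62.7. Rested D2 had the highest total of all libraries, 2652290. The part of the totals in these values was not tested. Among rested marrows D8 stood apart for Hpgd at 9.58.

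The effect of 10 defeats differed between spleen and marrow, by limma's test of the difference, for Ptgs1 (-0.95) and Ptges (-0.95). Neither passed without the 5 steep spleen libraries (-0.83 and -0.61), and Ptges also lost the call with quantile normalization, with no filter and in 7 of 18 omissions of 1 library. The value for Slco2a1 was -2.06, but no marrow library reached 1, so marrow could show no fall and this is not read as a difference between the tissues.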

How the results depend on the processing

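Of 24 called results for single genes, 406 alternatives gave 357 that kept direction and call, 48 that kept the direction without passing, and 1 that turned, Ptges3 in 10xStress spleens with equal totals (-0.20). Of 88 uncalled results, 1502 alternatives gave 33 calls and 91 changes of sign without a call. The cause was not tested for any of these. The 5 spleen libraries, the scaling and, for low genes, the floor near 0 limit the precision.

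The number of the 10 genes called after 10xStress in marrow was 4 and became 2 with equal totals. In spleen it was 6 after 10xStress and became 3 without the 5 steep libraries, a setting chosen after seeing the data, and the tissue difference of that effect had 3 and then 1, Slco2a1, which marrow could not show. For 1xStress spleens the count was 0 and became 1 with quantile normalization, with only the groups compared and without the 5 libraries. For rested against control spleens it was 0 and became 3 with quantile normalization, 1 with median-ratio rescaling, 2 with the trends removed, 2 with only the groups compared and 1 without the 5 libraries. For rested against control marrows it was 0 and became 1 with only the groups compared.

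With 1 library left out, the count ranged over 2 to 5 for 4xStress marrows (2 without D12), 2 to 4 for 10xStress marrows (2 without C2, C4 or D6), 1 to 4 for rested against 10xStress marrows (1 without rested D2), 0 to 1 for 4xStress spleens (1 without D14), 0 to 1 for rested against control spleens (1 without D3 or D8), 0 to 1 for rested against 10xStress spleens (1 without D4), and 5 to 7 for 10xStress spleens.

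Counts over all genes moved further. With other settings, 2493 calls for 4xStress marrows became 1112 with equal totals, 8196 for 10xStress spleens became 3243 without the 5 libraries, 1012 for rested against control spleens became 407 to 2260, 79 for rested against 10xStress spleens became 0 to 120, 96 for 1xStress spleens became 24 to 1753, 6 for 4xStress spleens became 0 to 245, 0 for rested against control marrows became up to 396, 1 for 1xStress marrows became 0 to 4, and 1477 for the tissue difference of the change with rest became 515 to 1926. Without 1 library the lowest and highest were 699 (D12) and 3062 for 4xStress marrows, 3785 (C4) and 5780 for 10xStress marrows, 1301 (rested D2) and 3178 for rested against 10xStress marrows, 8 (D16) and 84 for 1xStress spleens, 0 (D13) and 168 (D14) for 4xStress spleens, 201 (C2) and 1099 for rested against control spleens, 2 (10xStress D7) and 2316 (10xStress D4) for rested against 10xStress spleens, and 767 (rested marrow D8) and 2962 (10xStress spleen D4) for the tissue difference of the change with rest.

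Marrow and spleen libraries share numbers in the labels. Over 15 such pairs the correlations of their deviations ran between -0.226 and 0.397 with a median of 0.061, and own number was the best match in 2, so the numbers were not taken to pair the samples. With the replicate block the members called were 4 for the control tissues, 3 for the tissue difference of the 10xStress effect and 0 for that of the change with rest, the same counts as without it.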
